A study of Mus musculus with 9 samples.

Results

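The 39 genes described here encode the machinery of macroautophagy, from the kinase complex that starts it to the lysosomal proteins that end it, and were followed in polyadenylated RNA of sorted mouse thymic epithelial cells. They were chosen by name from the 38720 genes of the count table, 38 by their own symbol and Atg101 by its older symbol 9430023L20Rik. These genes, and the further gene lists and cell type markers below, were chosen with earlier results of these data known. Their shares beside those of all genes are therefore descriptions and not independent support. The study asked what the transcription factor FOXN1, which is required for the thymic epithelium and is missing in nude mice, controls in these cells. In macroautophagy, a cup-shaped membrane closes around cytoplasm or marked cargo and delivers it to the lysosome. Thymic epithelial cells are known for a high autophagic flux without starvation, and the pathway feeds their own intracellular proteins to MHC class II for the selection of T cells.

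The 20 libraries form 6 groups in 2 mouse models. In the deletion model, 5 Foxn1-deleted cTEC libraries came from mice homozygous for beta5t-rtTA and for Foxn1 fl/fl and heterozygous for the tetO-Cre transgene. The 5 control cTEC libraries came from mice with the same beta5t-rtTA and Foxn1 fl/fl alleles but no tetO-Cre. Both groups were sampled 72 h after doxycycline, which switches on Cre in Foxn1-deleted mice to remove exons 7 and 8 of Foxn1. The rtTA is driven from the locus of beta5t, a proteasome subunit of cTEC, so Cre is limited to cells that use this locus. In the transgenic model, all mice carry the nude mutation and a BAC transgene of FLAG-tagged Foxn1. Of this model, 2 mTEC libraries came from heterozygous and 2 from homozygous transgenic mice, and 3 cTEC libraries came from heterozygous and 3 from homozygous transgenic mice. Cortical cells (cTEC) were sorted as CD45-, EpCAM+, MHC class II+, Ly51+ and UEA1- cells, and medullary cells (mTEC) as Ly51- and UEA1+ cells of the same kind. No age and no number of mice behind a library is given in the sources used here, so p-values measure the spread between libraries, which may be partly technical.

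Library totals were 20719630 to 22372633 counts. Levels below are CPM, the counts of a gene scaled to equal library size by TMM within a model, so a level in the deletion model and one in the transgenic model stand side by side without a test. Annotated positions (RefSeq, GRCm38.p6) of 16 members overlap another gene, 6 of them a protein-coding one: Becn1, Atg9b, Atg12, Atg4a, Atg4d and Map1lc3b. As the sources do not say whether counting used strand, reads of such pairs cannot be told apart. Levels are compared between groups, never between genes, because transcript lengths are not in the table. In bulk RNA, fewer cells of a kind and less RNA per cell cannot be told apart. Fold changes are log2 values ± SE, and adjusted p is that of edgeR's quasi-likelihood test, two-sided, with Benjamini-Hochberg adjustment over all genes tested and a threshold of 0.05.

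The labels were checked first. Counts of Foxn1 cover the whole gene and therefore test neither the deletion nor the transgene. Its level was 367 to 525 CPM in Foxn1-deleted and 362 to 605 CPM in control cTEC. It was 461 to 472 CPM in heterozygous and 285 to 305 CPM in homozygous mTEC, and 1136 to 1197 CPM in heterozygous and 1432 to 1623 CPM in homozygous cTEC. Gene-level Foxn1 thus ran with the labelled transgene dose in cTEC and against it in mTEC, and its reads do not part the transgene from the nude allele, so dose below means the label. Psmb11, which encodes beta5t and defines cTEC, was at 0 to 0.676 CPM in Foxn1-deleted and 0.400 to 1.87 CPM in control cTEC, close to 0 in both of these groups, which are homozygous for beta5t-rtTA. Aire, which marks mature mTEC, was at 943 to 958 CPM in heterozygous and 954 to 1101 CPM in homozygous mTEC, against 1.28 to 1.67 CPM in heterozygous and 1.46 to 3.25 CPM in homozygous cTEC. The female transcript Xist and the Y-linked Ddx3y were both read in every library. Control library 1 had 2.16 CPM of the female transcript Xist, against 372.1 to 579.6 CPM in the other controls.

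By edgeR without a library block, Wipi1 was the only autophagy gene that passed the test 72 h after the start of Foxn1 deletion. Of 38 members tested by edgeR, none was called higher and 1 lower, with 1 higher and 5 lower at an unadjusted p under 0.05, and the median change was 0.01, equal to the median of all genes tested. Over all 15224 genes tested, 0.282% were called higher and 1.69% lower, so a single lower member among 38 (2.63%) is near the background. DESeq2 called 0 members higher and 3 lower, with 295 higher and 769 lower over all genes. In limma-voom 0 members were called in either direction, with 15 higher and 89 lower over all genes. The share of all genes at an unadjusted p under 0.05 was not counted, so such counts here and below stand without a background. Atg9b had too few counts to be tested in this model. Initiation kinases, the PI3K complex and the ATG8 family held no call by any of these tools, and their members' log2 changes ran from -0.17 to 0.29. With library number as a block in edgeR, 398 of all genes were called higher and 822 lower. Among them were Gabarapl1 of the ATG8 family, higher, and Wipi1, Atg16l2, Optn and Lamp2, lower. No label says what the library numbers stand for.

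Wipi1 encodes a protein that binds the lipid PI3P on the growing membrane and helps to recruit the later factors. It had 54.6, 58.8, 56.1, 55.9 and 56.5 CPM in Foxn1-deleted cTEC, against 100.4, 75.6, 122, 85.5 and 188 CPM in control cTEC. All Foxn1-deleted libraries lay within a few CPM of each other and below every control, while the controls spread widely (log2 fold change -1.02 ± 0.21, adjusted p = 0.0364). The control libraries stood in the same order for Wipi1 as for the summed level of 9 cTEC markers, which was 13506, 6513, 15367, 7768 and 25483 CPM in controls 1 to 5, against 2812 to 3272 CPM in the Foxn1-deleted libraries. Of these 9 markers, 7 fell after deletion. Summed thymocyte markers were 457, 64.2, 428, 184 and 553 CPM in controls 1 to 5, the same order but for controls 1 and 3. The relation of Wipi1 to either sum was not tested. The call was lost when control 1 or 3, or any of the 5 Foxn1-deleted libraries, was left out, with adjusted p up to 0.119 and a log2 change of -1.14 to -0.76 over the 10 such fits. Without control 2 the lower members were 4, and without control 4 they were 2. Calls over all genes rose as well, from 257 lower genes to 732 without control 2 and 450 without control 4.

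Lamp2 encodes an abundant lysosomal membrane protein needed for fusion with autophagosomes and for chaperone-mediated autophagy. It had 1002, 1033, 884, 878 and 920.1 CPM in Foxn1-deleted cTEC, against 1298, 1151, 1321, 1093 and 1799 CPM in control cTEC, and did not pass the test (-0.50 ± 0.13, adjusted p = 0.0861). Lamp2 is X-linked, and Xist was at 480.8 to 1184 CPM in Foxn1-deleted and 2.16 to 579.6 CPM in control cTEC; the part of this difference in the Lamp2 values was not tested. Atg16l2, a paralog of the conjugation factor Atg16l1, had 24.8, 17.8, 25.8, 22.9 and 20.8 CPM in Foxn1-deleted and 34.7, 19.9, 43.5, 38.1 and 56.9 CPM in control cTEC (-0.79 ± 0.23, adjusted p = 0.107). Optn, which encodes the ubiquitin-binding receptor optineurin, had 23.5, 20.2, 21.6, 22.1 and 24.6 CPM in Foxn1-deleted and 30.4, 23.0, 31.5, 26.8 and 44.1 CPM in control cTEC (-0.48 ± 0.15, adjusted p = 0.135). In Wipi1 and these 3 genes control library 5, the one richest in cTEC and in thymocyte markers, was the highest library. This relation was not tested. With library number as a block, Lamp2, Atg16l2 and Optn were called lower as Wipi1 was, and Lamp2 was called lower by DESeq2 too. Summed fibroblast markers were 784 to 1387 CPM in Foxn1-deleted and 362.5 to 856 CPM in control cTEC, none of the 7 called, and their part in the changes was not tested.

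The genes most often used as readouts of the pathway overlapped between the groups. Map1lc3b encodes LC3B, the lipid-anchored coat protein of autophagosomes, and had 281, 187, 271, 275 and 244 CPM in Foxn1-deleted and 285, 184, 262, 242 and 253 CPM in control cTEC (0.04 ± 0.14, adjusted p = 0.908). Sqstm1 encodes p62, the receptor that links ubiquitinated cargo to LC3, and had 299, 192, 282, 278 and 263 CPM in Foxn1-deleted and 287, 195, 296, 229.7 and 258 CPM in control cTEC (0.05 ± 0.14, adjusted p = 0.865). Library 2 was the lowest for both genes in each of the 2 groups. Ulk1, the initiating kinase, averaged 194 ± 22.8 CPM in Foxn1-deleted and 159 ± 30.4 CPM in control cTEC (0.29 ± 0.13, adjusted p = 0.258; SD, n = 5 each). Becn1, the Beclin 1 subunit of the PI3K complex, averaged 74.2 ± 3.91 CPM in Foxn1-deleted and 74.0 ± 1.64 CPM in control cTEC (0.00 ± 0.05, adjusted p = 0.977). Atg5, part of the conjugate that attaches LC3 to membrane, averaged 36.7 ± 2.51 CPM in Foxn1-deleted and 38.2 ± 2.27 CPM in control cTEC (-0.06 ± 0.07, adjusted p = 0.691). Tfeb, a transcription factor for lysosomal and autophagy genes, averaged 10.7 ± 0.608 CPM in Foxn1-deleted and 9.89 ± 1.75 CPM in control cTEC (0.12 ± 0.13, adjusted p = 0.671). Lamp1, the other major lysosomal membrane glycoprotein, averaged 478 ± 42.9 CPM in Foxn1-deleted and 450.4 ± 41.9 CPM in control cTEC (0.08 ± 0.09, adjusted p = 0.632).

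**Figure D1:**
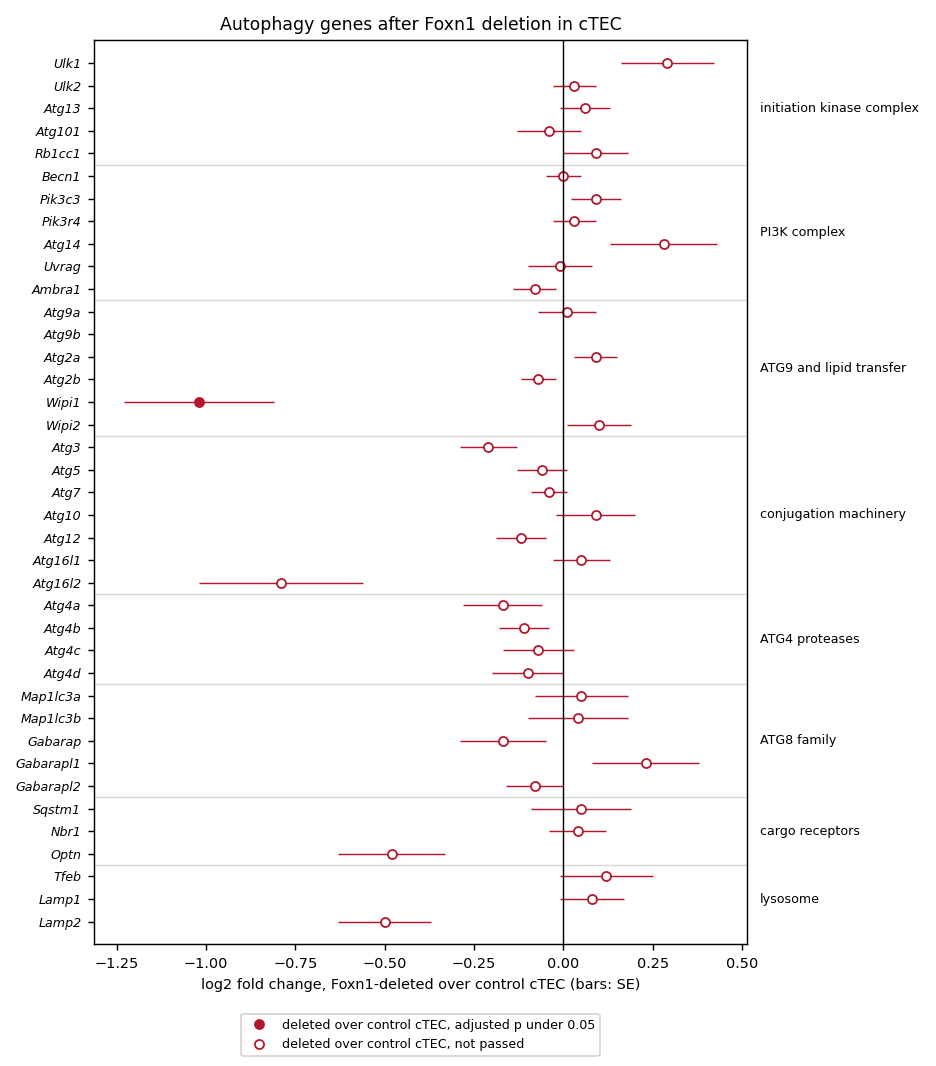
Log2 fold change of each autophagy gene in Foxn1-deleted over control cTEC, with SE bars and filled points for adjusted p under 0.05, by role in the pathway. Only Wipi1 at -1.02 is filled, and Atg16l2, Lamp2 and Optn are the next lowest points.

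In heterozygous cTEC, labelled as the lower transgene dose, more autophagy genes were called lower than higher. Of 39 members, 16 (41.0%) were called lower and 2 (5.13%) higher in heterozygous cTEC, while 21.9% of all 19222 genes tested were lower and 20.9% higher. The median change of the members was -0.14, against 0.00 over all genes. None of 5 genes of the initiation kinase complex was called by edgeR, with 1 higher at an unadjusted p under 0.05, and none by DESeq2 or limma-voom, while 3 of 5 ATG8 genes, 2 of 3 cargo receptors and both Lamp genes fell. This split depends on the scaling: without normalization factors, which moves the median of all genes by 0.11, 11 members were called lower, all of them among the 16, and 11 higher, 4 of them initiation genes. Pik3r4, Ambra1, Atg3, Atg4a and Map1lc3b were the lower calls lost in that setting.

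Gabarapl1, an ATG8 family member, showed the smallest p. Its level was 41.4, 34.3 and 38.6 CPM in heterozygous cTEC, against 81.9, 82.6 and 78.2 CPM in homozygous cTEC (-1.09 ± 0.07, adjusted p = 6.98e-08), with no overlap. Map1lc3b, at 181, 154 and 153 CPM in heterozygous and 207, 204 and 188 CPM in homozygous cTEC, had the smaller log2 change (-0.29 ± 0.07, adjusted p = 0.00334). Gabarap, which acts late in autophagosome closure and fusion, fell by 0.40 on the log2 scale. Map1lc3a and Gabarapl2 did not pass, with log2 changes of -0.02 and -0.16.

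Among the cargo receptors, Sqstm1 and Optn fell and Nbr1 did not pass (0.12 ± 0.06). Sqstm1 had 201, 171 and 181 CPM in heterozygous and 346, 329.9 and 328 CPM in homozygous cTEC (-0.86 ± 0.06, adjusted p = 1.87e-07). Optn had 23.6, 19.5 and 21.1 CPM in heterozygous and 37.5, 33.9 and 36.4 CPM in homozygous cTEC (-0.75 ± 0.08, adjusted p = 7.11e-06). In both genes every heterozygous library lay well below every homozygous one.

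The lysosomal members moved both ways. Lamp2 had 1346, 1331 and 1363 CPM in heterozygous cTEC, against 2128, 2146 and 2302 CPM in homozygous cTEC (-0.70 ± 0.06, adjusted p = 5.68e-07), with a gap much wider than the spread in either group. Lamp1 had 299.5, 290.4 and 292 CPM in heterozygous and 354, 358 and 386 CPM in homozygous cTEC (-0.32 ± 0.06, adjusted p = 4.99e-04). Tfeb rose, at 15.2, 12.2 and 13.2 CPM in heterozygous and 10.6, 10.8 and 10.5 CPM in homozygous cTEC (0.35 ± 0.10, adjusted p = 0.0125). Its call was lost without heterozygous cTEC library 1 (adjusted p = 0.0683), the library with the highest value.

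Of the conjugation machinery, Atg16l2 had the largest fall of all members, with 28.6, 23.7 and 23.7 CPM in heterozygous cTEC and 69.7, 49.4 and 61.3 CPM in homozygous cTEC (-1.25 ± 0.12, adjusted p = 2.30e-06). Atg16l1, the paralog that acts in canonical autophagy, averaged 45.0 ± 1.64 CPM in heterozygous and 46.7 ± 2.03 CPM in homozygous cTEC (SD, n = 3 each) and did not pass (-0.05 ± 0.06). Atg12, the ubiquitin-like partner of Atg5, fell by 0.39, and Atg3, the E2-like enzyme that transfers ATG8 proteins to lipid, fell by 0.24. Atg5 itself had 36.2, 37.7 and 37.4 CPM in heterozygous and 39.8, 41.4 and 41.6 CPM in homozygous cTEC and did not pass (-0.14 ± 0.07, adjusted p = 0.141). Atg4a, a protease that processes ATG8 proteins, was lower (log2 change -0.23), a call lost without any 1 of 7 libraries, all but heterozygous cTEC 2 and the homozygous mTEC libraries (adjusted p up to 0.195). Ap3s1, which overlaps Atg12, also fell in heterozygous cTEC (-0.52, adjusted p = 5.89e-04), and Cntd1, which overlaps Becn1, rose (1.27, adjusted p = 0.00686). Cntd1 had few reads, with 0.929, 0.596 and 0.957 CPM in heterozygous and 0.358, 0.25 and 0.416 CPM in homozygous cTEC.

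Wipi1 and Wipi2, paralogs in PI3P binding, moved in opposite directions. Wipi1 had 108, 95.8 and 109 CPM in heterozygous cTEC, against 156, 155 and 153 CPM in homozygous cTEC (-0.57 ± 0.06, adjusted p = 5.26e-06). Wipi2 had 126, 119.6 and 117 CPM in heterozygous and 106, 108 and 105 CPM in homozygous cTEC (0.18 ± 0.06, adjusted p = 0.0200). Atg2b, which moves lipid into the growing membrane, fell by 0.32, while its paralog Atg2a (-0.12 ± 0.06) and the scramblase Atg9a (-0.10 ± 0.06) did not pass. In the PI3K complex, Uvrag fell by 0.40, Ambra1 by 0.18 and Pik3r4 by 0.16, and Becn1 stayed at 77.4, 71.1 and 77.3 CPM in heterozygous and 73.3, 79.8 and 73.2 CPM in homozygous cTEC (0.00 ± 0.06, adjusted p = 0.992). Ulk1 overlapped at 157, 145 and 146 CPM in heterozygous and 157, 143 and 139 CPM in homozygous cTEC (0.03 ± 0.06, adjusted p = 0.772). Pik3r4 was lost without heterozygous library 2 or homozygous library 1 or 3 (adjusted p up to 0.0588), Ambra1 without heterozygous 3 or homozygous 1 or 3 (up to 0.0919), and Wipi2 without heterozygous 1 or homozygous 1 or 3 (up to 0.0824). Of the 18 calls, 13 were kept in all 10 fits that each left out 1 library.

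Marker levels moved with the dose in cTEC. The summed cTEC markers were 2286 to 2637 CPM in heterozygous and 18662 to 20827 CPM in homozygous cTEC, with all 9 called lower. The 12 thymocyte markers summed to 10.9 to 19.0 CPM in heterozygous and 71.1 to 113 CPM in homozygous cTEC, with 12 called lower. The 7 fibroblast markers summed to 217.5 to 239 CPM in heterozygous and 41.2 to 43.5 CPM in homozygous cTEC, with 4 called higher. The 10 mTEC markers summed to 752 to 939 CPM in heterozygous and 229.6 to 259 CPM in homozygous cTEC, with 5 called higher and 4 lower. No marker of these lists was at 0 in either group, and their part in the autophagy changes was not tested.

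**Figure D2:**
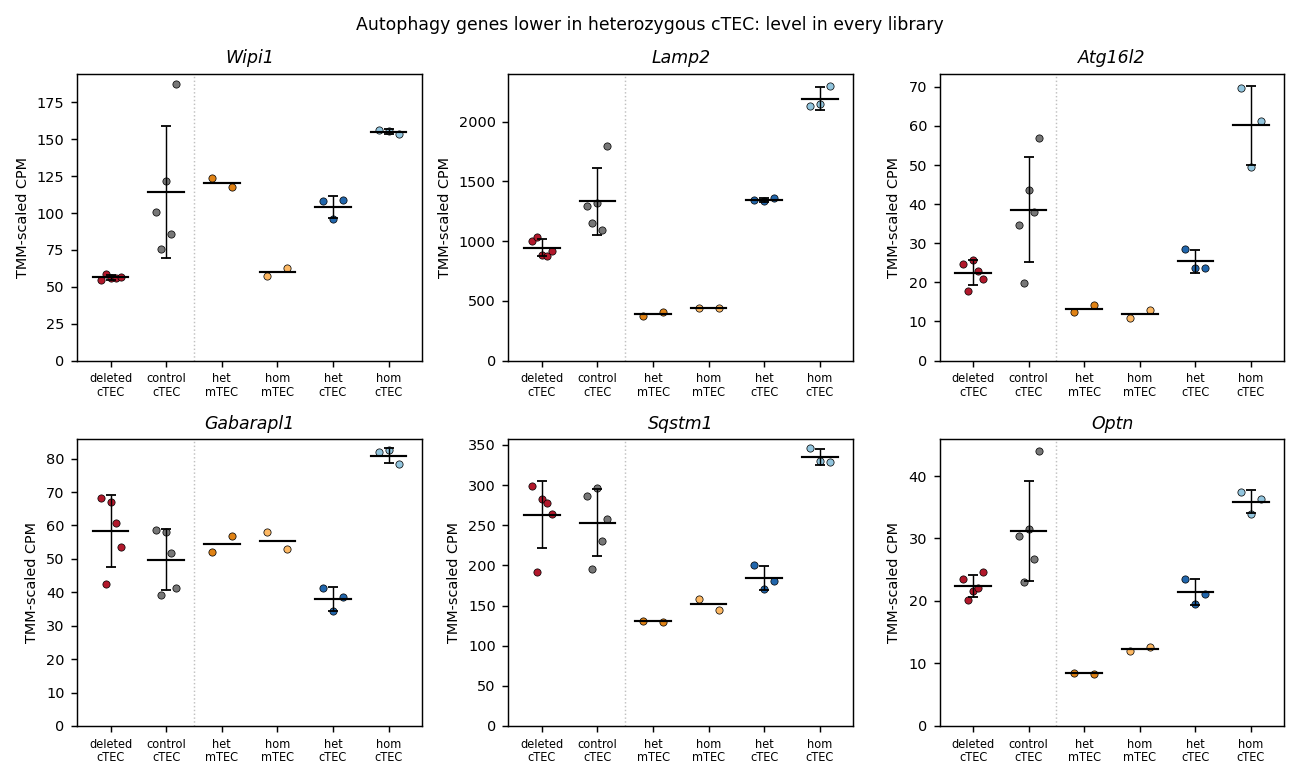
Level of 6 autophagy genes in every library (TMM-scaled CPM, linear axes from 0); the line is the mean and the bar the SD, drawn for groups of 3 or more. The dotted line parts the deletion model on the left from the transgenic model on the right. In all 6 panels the heterozygous cTEC points lie below the homozygous ones, and Wipi1 has its heterozygous mTEC points above the homozygous ones.

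The promoters of several genes that fell can be read beside these values. A promoter of 300 bases, 250 before and 50 after the RefSeq start in GRCm38.p6, was found for 33 members, 38 promoters in all since 4 members have more than 1. GACGC, the core that FOXN1 is known to bind, was searched on both strands (GCGTC on the other), and so was the palindrome CACGTG, the E-box that TFEB and its relatives bind. GACGC was in 20 of these 38 promoters (52.6%), against 27.2% of all 32851 promoters, and CACGTG in 5 of 38 (13.2%), against 7.15% of all. Both motifs contain CG, and these shares were not matched for the base composition of the promoters. Of the 15 members with a promoter that were lower in heterozygous cTEC, 8 have one that holds GACGC, as do 11 of the 18 others. Wipi1, Gabarapl1 and Atg16l2 are shown because they hold GACGC and had the largest dose-by-compartment differences of those that passed the test. Lamp1 is shown as the member with 4 E-boxes. Capitals mark GACGC or GCGTC in the first 3 and CACGTG in Lamp1, and each sequence runs 5′ to 3′ on the gene's strand.
Wipi1 promoter, chr11:109611340-109611639, minus strand: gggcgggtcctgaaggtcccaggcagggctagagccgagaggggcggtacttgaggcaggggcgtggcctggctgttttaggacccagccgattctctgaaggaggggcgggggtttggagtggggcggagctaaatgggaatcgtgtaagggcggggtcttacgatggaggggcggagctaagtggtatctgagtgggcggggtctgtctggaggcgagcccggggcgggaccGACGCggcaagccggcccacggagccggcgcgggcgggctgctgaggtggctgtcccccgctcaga
Gabarapl1 promoter, chr6:129532942-129533241, plus strand: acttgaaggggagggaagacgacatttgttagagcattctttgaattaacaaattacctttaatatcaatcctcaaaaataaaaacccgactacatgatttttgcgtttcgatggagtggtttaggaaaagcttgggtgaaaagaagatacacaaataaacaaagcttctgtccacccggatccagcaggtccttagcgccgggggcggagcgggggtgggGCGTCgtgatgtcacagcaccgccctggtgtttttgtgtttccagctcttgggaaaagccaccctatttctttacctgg
Atg16l2 promoter, chr7:101302039-101302338, minus strand: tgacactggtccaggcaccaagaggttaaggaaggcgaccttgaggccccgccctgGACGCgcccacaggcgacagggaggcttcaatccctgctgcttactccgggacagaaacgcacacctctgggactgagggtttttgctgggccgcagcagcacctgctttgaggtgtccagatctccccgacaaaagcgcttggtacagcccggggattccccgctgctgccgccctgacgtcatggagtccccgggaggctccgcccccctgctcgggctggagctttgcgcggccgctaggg
Lamp1 promoter, chr8:13158911-13159210, plus strand: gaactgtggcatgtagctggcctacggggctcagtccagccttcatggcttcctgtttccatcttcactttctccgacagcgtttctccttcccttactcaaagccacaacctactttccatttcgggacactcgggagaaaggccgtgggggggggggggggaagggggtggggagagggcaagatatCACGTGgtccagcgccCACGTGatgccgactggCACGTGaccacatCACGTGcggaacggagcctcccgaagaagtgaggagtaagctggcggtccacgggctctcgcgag
Counted from the start, the match begins at -16 in Wipi1, -29 in Gabarapl1 and -194 in Atg16l2, and the E-boxes of Lamp1 begin at -61, -45, -28 and -15. The promoters of Sqstm1, Optn and Lamp2, which also fell in heterozygous cTEC, hold neither motif in this window. A match of letters is a description and not a bound site.

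In heterozygous mTEC, where gene-level Foxn1 was above that of homozygous mTEC, autophagy genes were called in both directions. Of 39 members, 10 (25.6%) were called higher and 13 (33.3%) lower in heterozygous mTEC, near the 28.9% and 30.8% of all genes tested. The median change was -0.05, against 0.01 over all genes. Of the 6 genes for ATG9 vesicles and lipid transfer 3 rose and 1 fell, of the 6 of the PI3K complex 3 rose and 1 fell, and of the 5 ATG8 genes 2 fell and none rose. With DESeq2's size factors, which move the median of all genes by -0.13, 5 members were higher and 17 lower. Ulk1, Ambra1, Atg2a, Wipi1 and Wipi2 kept their higher call there, and Becn1, Pik3r4, Atg16l1, Atg4c and Nbr1 lost it.

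Wipi1 showed the largest rise, with 124 and 117 CPM in heterozygous mTEC, against 57.01 and 62.7 CPM in homozygous mTEC (1.01 ± 0.08, adjusted p = 3.80e-07). Wipi2 had 97.9 and 92.9 CPM in heterozygous and 69.5 and 79.3 CPM in homozygous mTEC (0.36 ± 0.07, adjusted p = 8.30e-04). Atg2a had 73.5 and 70.3 CPM in heterozygous and 46.3 and 53.3 CPM in homozygous mTEC (0.53 ± 0.08, adjusted p = 1.11e-04). In none of these 3 genes did the libraries of the doses overlap.

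Ulk1 rose within the initiation complex, with 114 and 114 CPM in heterozygous and 72.6 and 83.3 CPM in homozygous mTEC (0.55 ± 0.08, adjusted p = 7.81e-05). Atg13, the adaptor of the ULK complex, fell, with 53.5 and 55.4 CPM in heterozygous and 72.0 and 64.9 CPM in homozygous mTEC (-0.33 ± 0.07, adjusted p = 0.00172). Ulk2, Atg101 and Rb1cc1 did not pass. Ambra1, a Beclin 1 partner, had 89.7 and 90.8 CPM in heterozygous and 66.6 and 77.1 CPM in homozygous mTEC (0.33 ± 0.07, adjusted p = 0.00156). Pik3r4, the VPS15 subunit, had 48.7 and 51.0 CPM in heterozygous and 41.3 and 43.3 CPM in homozygous mTEC (0.24 ± 0.06, adjusted p = 0.00601). Becn1 had 92.8 and 92.8 CPM in heterozygous and 83.3 and 81.7 CPM in homozygous mTEC (0.17 ± 0.07, adjusted p = 0.0450), and Uvrag fell (-0.19 ± 0.08). Becn1 was lost without any 1 of 8 libraries (adjusted p up to 0.127), all but libraries 2 of both cTEC groups, and Pik3r4 without heterozygous mTEC 2 (0.0508).

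The largest fall was that of Atg9b, the ATG9 paralog of restricted expression. It had 30 and 30 counts in heterozygous mTEC, against 285 and 302 counts in homozygous mTEC, or 1.33 and 1.33 against 12.2 and 13.0 CPM (-3.24 ± 0.25, adjusted p = 4.50e-07). Nos3, which its gene overlaps, did not pass in mTEC (log2 change -0.39, adjusted p = 0.487).

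Among the ATG4 proteases, Atg4a and Atg4d fell and Atg4c rose by 0.37. Atg4a had 33.0 and 30.7 CPM in heterozygous and 55.1 and 49.7 CPM in homozygous mTEC (-0.72 ± 0.09, adjusted p = 2.25e-05). Atg4d had 25.8 and 24.7 CPM in heterozygous and 34.1 and 33.9 CPM in homozygous mTEC (-0.43 ± 0.09, adjusted p = 0.00117). Psmd10, which overlaps Atg4a, also fell (-0.43, adjusted p = 0.00103), and Kri1, which overlaps Atg4d, rose (0.49, adjusted p = 0.0063). Of the ATG8 family, 2 of 5 fell. Gabarapl2 had 57.8 and 53.0 CPM in heterozygous and 82.9 and 69.9 CPM in homozygous mTEC (-0.46 ± 0.09, adjusted p = 7.76e-04), and Gabarap fell by 0.27. Map1lc3b, at 139 and 137 CPM in heterozygous and 153 and 145 CPM in homozygous mTEC, did not pass (-0.11 ± 0.08, adjusted p = 0.258), while its overlapping neighbour Zcchc14 rose (0.90, adjusted p = 3.79e-06). Map1lc3b was called lower with DESeq2 or its size factors.

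Optn, low in mTEC, had 8.45 and 8.38 CPM in heterozygous and 12.0 and 12.7 CPM in homozygous mTEC (-0.55 ± 0.11, adjusted p = 0.00114). Sqstm1 had 130.5 and 129.7 CPM in heterozygous and 158 and 145 CPM in homozygous mTEC (-0.22 ± 0.08, adjusted p = 0.0299), and Nbr1, a receptor related to p62, rose by 0.18. Lamp1 had 342 and 324 CPM in heterozygous and 466 and 431 CPM in homozygous mTEC (-0.43 ± 0.07, adjusted p = 1.77e-04). Lamp2, at 376 and 407 CPM in heterozygous and 441 and 438 CPM in homozygous mTEC, did not pass (-0.17 ± 0.07, adjusted p = 0.0621), nor did Tfeb (-0.13 ± 0.11, with 15.1 and 14.9 CPM in heterozygous and 17.2 and 15.7 CPM in homozygous mTEC). Lamp2 was called lower with DESeq2, its size factors, limma-voom, no normalization factors or no filter on low counts. Over all alternatives its log2 change ran from -0.29 to -0.11, so its place at the threshold depends on the setting. In the conjugation machinery Atg12 fell by 0.27, Atg5 by 0.25 and Atg3 by 0.19, and Atg16l1 rose by 0.26. Atg5 had 35.9 and 32.9 CPM in heterozygous and 44.6 and 37.3 CPM in homozygous mTEC. Of the 23 calls, 13 were kept in all 10 fits that each left out 1 library. Without homozygous mTEC 1 or heterozygous mTEC 2, Atg5, Atg3, Atg16l1, Gabarap, Sqstm1, Uvrag and Nbr1 were lost (adjusted p up to 0.263). Without heterozygous mTEC 1, Atg3, Atg4c, Sqstm1, Uvrag and Nbr1 were lost. Nbr1 was also lost without homozygous mTEC 2 or any cTEC library but heterozygous 2 or 3, and Uvrag without heterozygous cTEC 1 or homozygous cTEC 1 or 3.

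Immune and epithelial markers moved with the dose in mTEC. The 9 macrophage and dendritic cell markers summed to 144 to 145 CPM in heterozygous and 535 to 616 CPM in homozygous mTEC, with 7 called lower. The 12 thymocyte markers summed to 38.8 to 40.2 CPM in heterozygous and 75.1 to 94.6 CPM in homozygous mTEC, with 12 called lower. The 10 mTEC markers summed to 5553 to 5667 CPM in heterozygous and 6253 to 6885 CPM in homozygous mTEC, with 1 called higher and 5 lower. The 4 B cell markers summed to 13.8 to 17.3 CPM in heterozygous and 32.7 to 39.8 CPM in homozygous mTEC, with 3 called lower. The 9 cTEC markers summed to 672 to 719 CPM in heterozygous and 1179 to 1381 CPM in homozygous mTEC, with 9 called lower. No marker of these lists was at 0 in either group. The part of these cells in the autophagy changes was not tested.

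**Figure D3:**
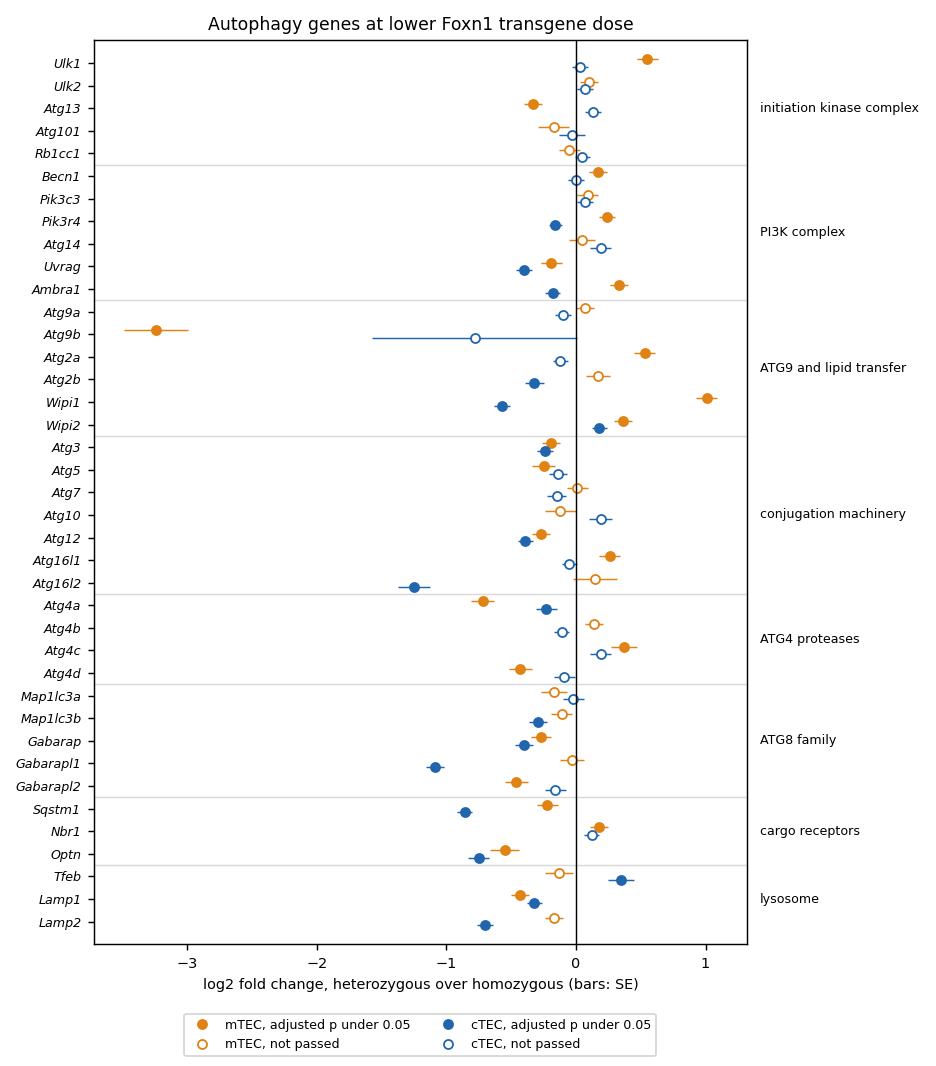
Log2 fold change of each autophagy gene in heterozygous over homozygous mice, in mTEC (orange) and cTEC (blue), with SE bars and filled points for adjusted p under 0.05. Most filled cTEC points lie left of 0, with Gabarapl1 at -1.09 and Atg16l2 at -1.25 far from their mTEC points, and Wipi1 stands at 1.01 in mTEC and -0.57 in cTEC.

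The dose comparisons share no library but come from the same fit, with a shared estimate of the spread. In both, 8 genes were called lower: Uvrag, Atg3, Atg12, Atg4a, Gabarap, Sqstm1, Optn and Lamp1. These are 20.5% of the members, against 7.57% of all genes lower in both. Only Atg12, Optn and Lamp1 kept both calls in every fit that left out 1 library, a filter not applied to all genes. Atg4a also lost its cTEC call with DESeq2, with limma-voom and with only the cTEC libraries. Wipi2 (2.56%) was called higher in both, against 9.11% of all genes. Pik3r4, Ambra1 and Wipi1 were higher in heterozygous mTEC and lower in heterozygous cTEC (7.69%, against 5.06% of all genes). Of these, only Wipi1 kept both calls in every fit that left out 1 library. The cTEC calls of Pik3r4 and Ambra1 were also lost without normalization factors, and the mTEC call of Pik3r4 with DESeq2 or its size factors. Members called in neither were Ulk2, Atg101, Rb1cc1, Pik3c3, Atg14, Atg9a, Atg7, Atg10, Atg4b and Map1lc3a, 10 in all, among them the catalytic subunit of the PI3K complex (Pik3c3) and the E1-like enzyme (Atg7).

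The difference between the dose effects was tested directly, as the heterozygous-over-homozygous change in mTEC minus that in cTEC. It was called positive for 12 members (30.8%) and negative for 4 (10.3%), with 25.2% and 17.2% of all genes called in these directions. The median difference of the members was 0.16, against 0.05 over all genes. With DESeq2's size factors, which move the median of all genes by -0.13, the split was 10 positive and 7 negative, and without normalization factors, which move it by -0.16, 10 and 8. Of the differences that passed, that of Wipi1 was the largest (1.58 ± 0.10, adjusted p = 1.09e-07), with opposite signs in the 2 compartments. Atg16l2 (1.40 ± 0.21, adjusted p = 1.48e-04) and Gabarapl1 (1.06 ± 0.11, adjusted p = 1.08e-05) followed. Gabarapl1 had 51.9 and 56.8 CPM in heterozygous and 58.0 and 52.9 CPM in homozygous mTEC, overlapping groups, and Atg16l2 had 12.4 and 14.1 CPM in heterozygous and 10.9 and 13.0 CPM in homozygous mTEC. Both fell in cTEC and did not pass in mTEC.

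Sqstm1 (0.64 ± 0.10, adjusted p = 2.30e-04) and Lamp2 (0.54 ± 0.09, adjusted p = 4.90e-04) also fell more in cTEC than in mTEC. Atg2a (0.65 ± 0.10, adjusted p = 2.37e-04), Ulk1 (0.52 ± 0.10) and Atg16l1 (0.32 ± 0.10) rose in mTEC and did not pass in cTEC. Atg2a had 96.4, 90.2 and 93.9 CPM in heterozygous and 107, 102 and 95.5 CPM in homozygous cTEC. Ambra1 (0.51 ± 0.09), Pik3r4 (0.40 ± 0.08), Atg2b (0.49 ± 0.11) and Atg4b (0.24 ± 0.09) complete the positive ones. The negative ones were Atg13 (-0.46 ± 0.09, adjusted p = 0.00158), Atg4a (-0.49 ± 0.12, adjusted p = 0.00547), Tfeb (-0.48 ± 0.15, adjusted p = 0.0222) and Atg4d (-0.34 ± 0.12, adjusted p = 0.0332). In cTEC, Atg13 had 60.2, 56.0 and 58.4 CPM in heterozygous and 53.7, 55.0 and 50.8 CPM in homozygous mice, without overlap but short of the threshold (0.13 ± 0.06). Of the 16 calls 12 were kept in every fit that left out 1 library. Tfeb was lost without heterozygous cTEC 1, homozygous mTEC 1 or either heterozygous mTEC library (adjusted p up to 0.0797), and Atg16l1 without library 3 of either cTEC group, heterozygous mTEC 2 or homozygous mTEC 1 (up to 0.0855). Atg4b was lost without any library but homozygous cTEC 3 and homozygous mTEC 1 (up to 0.175), and Atg4d without any but heterozygous cTEC 2 and homozygous cTEC 1 (up to 0.114). Atg16l1 and Atg4b were also lost under both other scalings.

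Between the compartments, 76.9% of the members in homozygous and 69.2% in heterozygous mice were called in either direction, no more than the 82.6% and 72.0% of all genes. In homozygous mice, 10 of 39 members (25.6%) were called higher and 20 (51.3%) lower in mTEC than in cTEC, against 43.2% higher and 39.4% lower of all genes. In heterozygous mice, 12 (30.8%) were higher and 15 (38.5%) lower in mTEC, against 40.4% and 31.6% of all genes. Median changes were -0.17 in homozygous mice, against 0.04 over all genes, and -0.06 in heterozygous mice, against 0.09. In homozygous mice the split was 15 higher and 15 lower with DESeq2's size factors and 16 and 14 without normalization factors, which move the median of all genes by 0.18 and 0.24. Uvrag, Atg7 and Atg4c, called lower at the standard scaling, turn to log2 changes of 0.07, 0.02 and 0.01 without normalization factors, so no direction is drawn for them. Atg4b and Atg3 lost their lower calls under both of these scalings, and Atg16l1 lost it without normalization factors.

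At both doses, 8 members (20.5%, against 34.8% of all genes) were higher in mTEC: Atg101, Atg9b, Atg12, Atg4a, Atg4d, Map1lc3a, Gabarapl2 and Lamp1. Map1lc3a, which encodes LC3A, had 84.7 and 80.6 CPM in heterozygous mTEC, against 43.7, 37.3 and 37.3 CPM in heterozygous cTEC (1.07 ± 0.09, adjusted p = 1.54e-07). In homozygous mice it had 94.0 and 91.3 CPM in mTEC, against 41.6, 43.5 and 35.2 CPM in cTEC (1.21 ± 0.09, adjusted p = 2.44e-08). Its levels thus separated the compartments at each dose and did not pass between the doses.

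Atg4a was 31.9 CPM on average in heterozygous mTEC and 14.1 in heterozygous cTEC, with 13.8, 15.3 and 13.2 CPM in the cTEC libraries (1.17 ± 0.09, adjusted p = 3.91e-08). In homozygous mice, mTEC averaged 52.4 CPM, against 16.1, 16.4 and 17.2 CPM in cTEC (1.66 ± 0.08, adjusted p = 4.44e-10). Atg4a overlaps Psmd10, a proteasome assembly factor, which also was higher in mTEC (log2 changes 0.56 in heterozygous and 0.85 in homozygous mice). Atg4d had 17.9, 15.4 and 17.7 CPM in heterozygous cTEC and 18.5, 17.5 and 18.2 CPM in homozygous cTEC, below every mTEC library given above (0.57 ± 0.08 in heterozygous and 0.92 ± 0.08 in homozygous mice). It overlaps Kri1, which was lower in homozygous mTEC (-0.49).

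Atg9b was the member with the largest contrast. Its counts were 285 and 302 in homozygous mTEC, against 1, 5 and 2 in homozygous cTEC (6.47 ± 0.32, adjusted p = 3.71e-10), and 30 and 30 in heterozygous mTEC, against 2, 3 and 0 in heterozygous cTEC (4.02 ± 0.50, adjusted p = 8.57e-06). With so few counts in cTEC the size of the fold is imprecise. Nos3, its overlapping neighbour, was also higher in mTEC, with log2 changes of 3.79 in homozygous and 4.29 in heterozygous mice. Atg9a, the broadly used paralog, had 43.7 and 44.4 CPM in homozygous mTEC and 41.8, 43.5 and 42.8 CPM in homozygous cTEC and did not pass (0.05 ± 0.07).

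Atg12 had 62.3 and 63.7 CPM in heterozygous mTEC and 44.5, 42.8 and 44.3 CPM in heterozygous cTEC (0.52 ± 0.07, adjusted p = 8.45e-06), and 80.8 and 71.5 CPM in homozygous mTEC and 55.8, 59.3 and 57.2 CPM in homozygous cTEC (0.41 ± 0.06, adjusted p = 4.98e-05). Atg12 overlaps Ap3s1, which was higher in mTEC as well (log2 changes 0.65 in heterozygous and 0.31 in homozygous mice). Gabarapl2 was higher in mTEC by 0.23 in heterozygous and 0.54 in homozygous mice over cTEC, whose libraries had 48.7, 45.0 and 47.9 CPM in heterozygous and 52.4, 56.1 and 49.1 CPM in homozygous mice. Lamp1 was higher in mTEC by 0.18 in heterozygous and 0.29 in homozygous mice. Atg101 was higher by 0.26 in heterozygous and 0.39 in homozygous mice.

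At both doses, 12 members (30.8%, against 27.2% of all genes) were lower in mTEC: Ulk1, Ulk2, Pik3r4, Atg2a, Atg2b, Wipi2, Atg3, Atg16l2, Map1lc3b, Sqstm1, Optn and Lamp2. Lamp2 led them, with 376 and 407 CPM in heterozygous mTEC, against 1346, 1331 and 1363 CPM in heterozygous cTEC (-1.78 ± 0.07, adjusted p = 6.91e-11), and 441 and 438 CPM in homozygous mTEC, against 2128, 2146 and 2302 CPM in homozygous cTEC (-2.32 ± 0.07, adjusted p = 3.70e-12). Lamp1 and Lamp2, which coat the same organelle, stood in opposite order between the compartments.

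Optn had a log2 change in mTEC over cTEC of -1.35 ± 0.10 in heterozygous mice (adjusted p = 6.67e-08) and -1.54 ± 0.10 in homozygous mice (adjusted p = 5.26e-09). Sqstm1 had a log2 change in mTEC over cTEC of -0.50 ± 0.07 in heterozygous mice (adjusted p = 3.48e-05) and -1.15 ± 0.07 in homozygous mice (adjusted p = 5.86e-09). Atg16l2 had a log2 change in mTEC over cTEC of -0.93 ± 0.15 in heterozygous mice (adjusted p = 8.23e-05) and -2.33 ± 0.15 in homozygous mice (adjusted p = 5.87e-09). These genes and Lamp2 are among the 6 with the smallest p between the doses in cTEC, and their contrast between compartments was larger in homozygous mice by the tested differences given above for Sqstm1, Atg16l2 and Lamp2; the difference for Optn did not pass (0.19 ± 0.14). Map1lc3b was lower in mTEC, with log2 changes of -0.24 ± 0.08 in heterozygous and -0.42 ± 0.08 in homozygous mice, the reverse order to Map1lc3a. Map1lc3b overlaps Zcchc14, which was also lower in mTEC (log2 changes -0.34 in heterozygous and -1.27 in homozygous mice). Without normalization factors Map1lc3b lost its call in heterozygous mice (adjusted p = 0.0691).

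Pik3r4 had 48.7 and 51.0 CPM in heterozygous mTEC and 73.9, 72.3 and 75.1 CPM in heterozygous cTEC (-0.57 ± 0.06, adjusted p = 1.15e-06), and 41.3 and 43.3 CPM in homozygous mTEC and 83.6, 80.8 and 83.3 CPM in homozygous cTEC (-0.97 ± 0.06, adjusted p = 3.19e-09). Ulk2 had 65.4 and 63.7 CPM in heterozygous mTEC and 86.0, 79.0 and 86.3 CPM in heterozygous cTEC (-0.38 ± 0.06, adjusted p = 1.59e-04). Both kinases of the initiation complex were lower, Ulk1 with log2 changes of -0.39 in heterozygous and -0.91 in homozygous mice and Ulk2 with -0.38 in heterozygous and -0.41 in homozygous mice. Atg2a, Atg2b, Wipi2 and Atg3 were lower, with log2 changes of -0.38 to -0.27 in heterozygous and -1.03 to -0.31 in homozygous mice.

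Wipi1 and Gabarapl1 changed sides between the doses. Wipi1 was higher in mTEC than in cTEC of heterozygous mice (0.21 ± 0.07, adjusted p = 0.0129) and lower in mTEC of homozygous mice (-1.37 ± 0.07, adjusted p = 6.47e-10). Gabarapl1 was likewise higher in heterozygous mTEC (0.51 ± 0.08, adjusted p = 7.31e-05) and lower in homozygous mTEC (-0.55 ± 0.08, adjusted p = 2.55e-05). Members called at 1 dose only were Becn1 (0.30) and Atg9a (0.22), higher in heterozygous mTEC, and Rb1cc1, Atg14 and Atg10, lower there with log2 changes of -0.46 to -0.23. Without normalization factors Rb1cc1 (adjusted p = 0.0648) and Atg14 (adjusted p = 0.153) lost that call. Becn1 in homozygous mice (0.13) was called higher with DESeq2, its size factors, no normalization factors or no filter on low counts. It also passed there without heterozygous cTEC 3, homozygous cTEC 2 or either heterozygous mTEC library, so its call is not particular to heterozygous mice. In homozygous mTEC only, Atg13 (0.36) and Tfeb (0.63) were called higher and Ambra1 (-0.57), Atg16l1 (-0.39) and Atg4b (-0.25) lower. Without normalization factors Tfeb was called higher in heterozygous mTEC too. Atg5 passed in neither, with log2 changes of -0.11 in heterozygous and 0.00 in homozygous mice. It was called higher in homozygous mTEC with DESeq2's size factors or no normalization factors. Pik3c3 was the only member called in none of the 6 comparisons.

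Of the compartment calls, 20 of 27 in heterozygous and 26 of 30 in homozygous mice were kept in every fit that left out 1 library. In heterozygous mice, Atg101, Rb1cc1, Atg14, Atg2b, Atg3, Map1lc3b and Gabarapl2 were lost without heterozygous mTEC 1 (adjusted p up to 0.329 over all fits), and all of these but Atg2b and Gabarapl2 without heterozygous mTEC 2. Without heterozygous cTEC 1, Atg101, Atg14 and Map1lc3b were lost, without heterozygous cTEC 2 Atg101 and Gabarapl2, without heterozygous cTEC 3 Rb1cc1, Atg14 and Atg3, and without homozygous cTEC 1 Atg101. In homozygous mice, Atg101 was lost without homozygous mTEC 1 (adjusted p = 0.0914), and Uvrag, Atg7 and Atg4c were lost without homozygous mTEC 2, heterozygous cTEC 3 or either heterozygous mTEC library, Uvrag also without homozygous cTEC 2 or 3 and Atg4c without homozygous cTEC 3 or homozygous mTEC 1 (up to 0.363).

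Markers of other cells differed between the sorts. Macrophage and dendritic cell markers summed to 535 to 616 CPM in homozygous mTEC and 97.8 to 106 CPM in homozygous cTEC, and B cell markers to 32.7 to 39.8 CPM in homozygous mTEC and 0.312 to 0.70 CPM in homozygous cTEC. Of the 9 macrophage and dendritic cell markers, 8 were higher and 1 lower in homozygous mTEC, all 4 B cell markers were higher, and 1 B cell marker was at 0 in homozygous cTEC. In heterozygous mice the macrophage and dendritic cell sums were 144 to 145 CPM in mTEC and 145 to 149 CPM in cTEC, with 7 of the 9 higher and 1 lower in mTEC. These like sums hold unlike markers: Sirpa averaged 41.7 CPM in mTEC and 139.7 CPM in cTEC, and Lyz2 82.4 and 2.07 CPM. B cell markers there summed to 13.8 to 17.3 CPM in mTEC and 0.229 to 0.882 CPM in cTEC, and 4 endothelial markers to 15.6 to 35.4 and 1.38 to 2.18 CPM, all called higher in mTEC. The part of these markers in the autophagy contrasts was not tested.

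**Figure D4:**
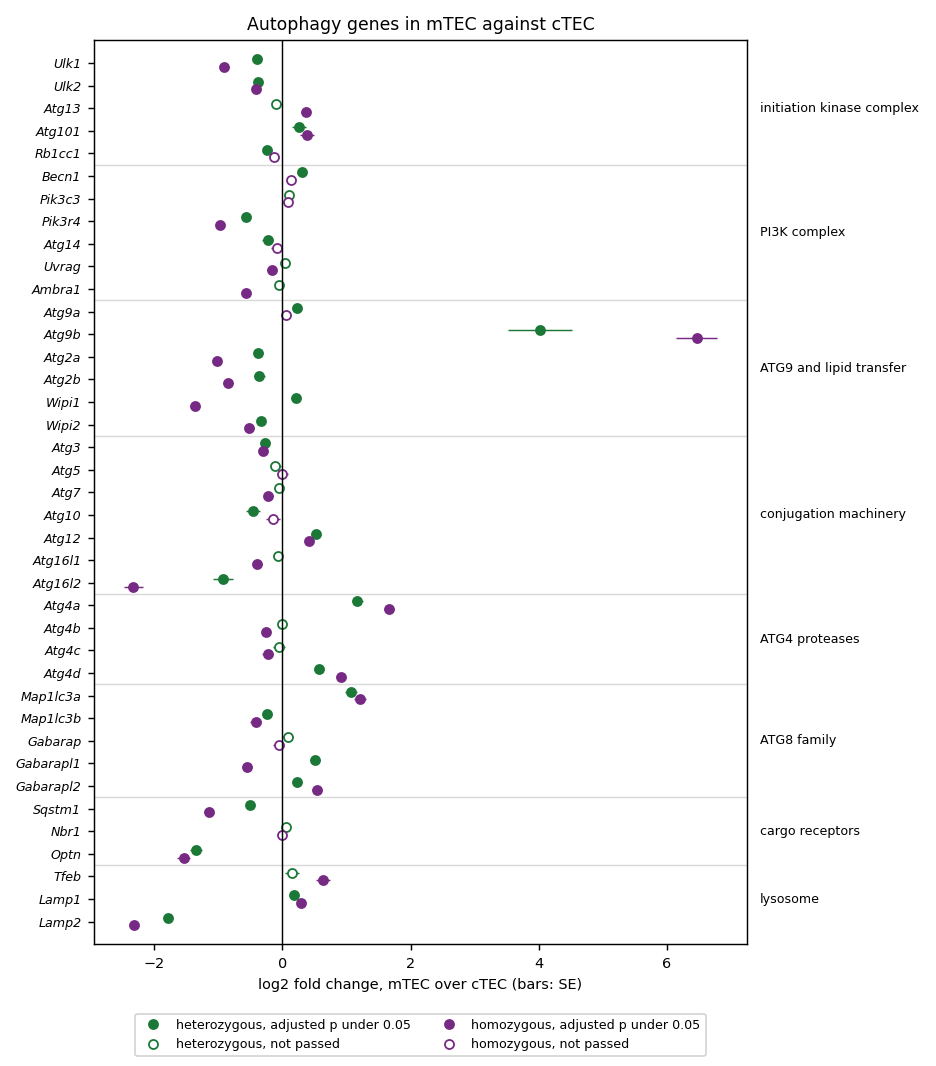
Log2 fold change of each autophagy gene in mTEC over cTEC, in heterozygous (green) and homozygous (purple) mice, with SE bars and filled points for adjusted p under 0.05. Atg9b lies far right at 4.02 and 6.47, Lamp2 far left at -1.78 and -2.32, and Wipi1 and Gabarapl1 have points on both sides of 0.

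**Figure D5:**
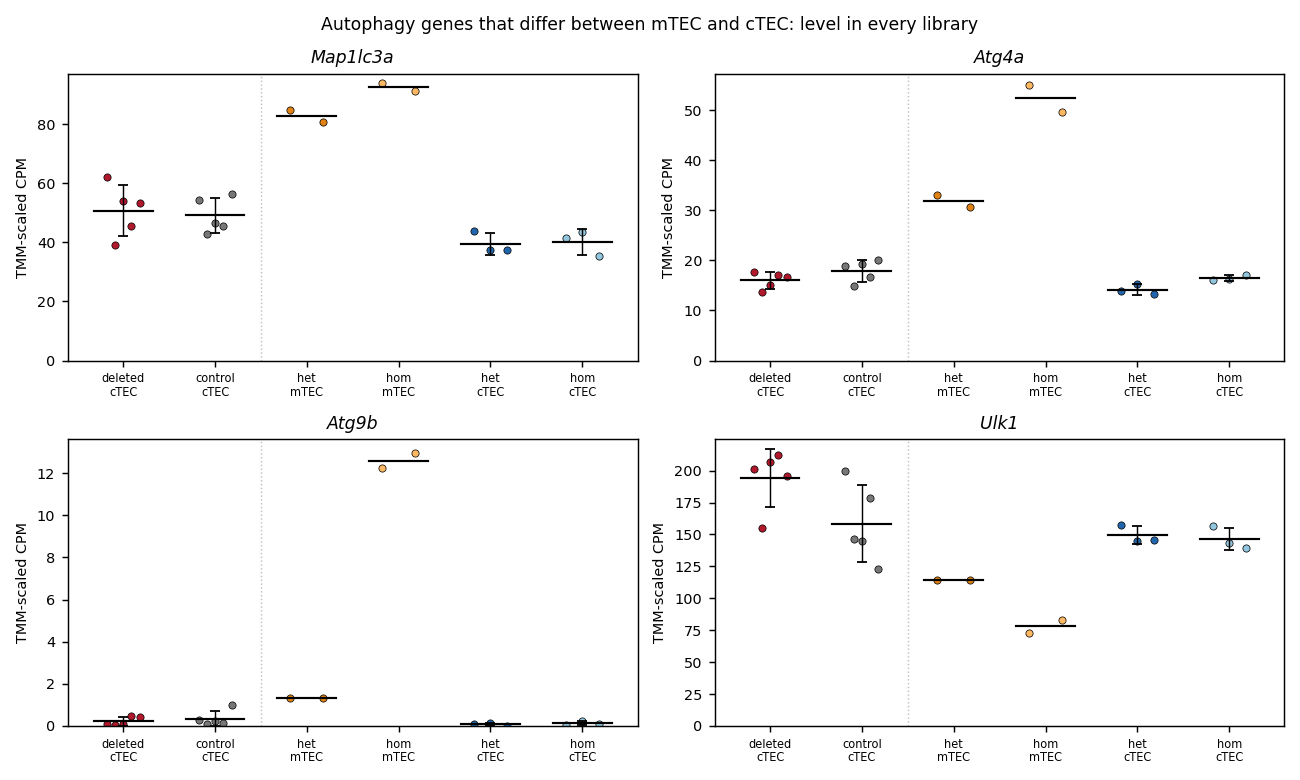
Level of 4 autophagy genes in every library (TMM-scaled CPM, linear axes from 0); the line is the mean and the bar the SD, drawn for groups of 3 or more. Map1lc3a and Atg4a are higher in every mTEC library than in any cTEC library of the transgenic model, Atg9b stands out in the homozygous mTEC libraries at 12.2 and 13.0 CPM, and Ulk1 is lowest there.

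Genes around the core pathway were followed as 7 further lists, whose counts stand beside 28.9% higher and 30.8% lower of all genes in heterozygous mTEC and 20.9% higher and 21.9% lower in heterozygous cTEC. The lists were chosen with earlier results of these data known, so these counts are descriptions. The vacuolar ATPase, the proton pump that acidifies lysosomes, moved together with dose: 15 of 16 subunits were lower in heterozygous mTEC (median -0.44) and 15 of 16 lower in heterozygous cTEC (median -0.42), with none higher. The all-gene medians were 0.01 and 0.00. Atp6v0a1 changed most in cTEC, averaging 52.2 CPM in heterozygous and 259 CPM in homozygous mice (-2.31 ± 0.08, adjusted p = 2.15e-10), and its dose effect differed between the compartments (1.77 ± 0.12, adjusted p = 2.81e-07). Atp6v0b averaged 37.9 CPM in heterozygous and 71.0 CPM in homozygous cTEC (-0.91 ± 0.07, adjusted p = 2.08e-07), and 54.4 CPM in heterozygous and 85.1 CPM in homozygous mTEC (-0.65 ± 0.08, adjusted p = 2.39e-05). Over the 3 scalings, 13 to 16 subunits were lower in heterozygous cTEC and 15 in heterozygous mTEC. After Foxn1 deletion edgeR called 0 of 16 subunits, with a median of -0.24, against 0.01 over all genes. At an unadjusted p under 0.05, 9 were lower, a count for which the share of all genes is not known. DESeq2 called 4 lower and limma-voom 0.

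Genes of TORC1 and AMPK signalling, which restrain or start autophagy by nutrient and energy state, were counted next. Of 30 genes, 15 were higher and 5 lower in heterozygous mTEC (median 0.17), and 1 was higher and 18 lower in heterozygous cTEC (median -0.22). The difference between the dose effects was called positive for 18 and negative for 2. With DESeq2's size factors 11 were higher and 8 lower in heterozygous mTEC, and without normalization factors 5 were higher and 11 lower in heterozygous cTEC. Mtor, the kinase of TORC1, rose in mTEC, averaging 82.7 CPM in heterozygous and 53.5 CPM in homozygous mice (0.63 ± 0.07, adjusted p = 7.45e-06). Prkab2, a regulatory subunit of AMPK, fell in cTEC, averaging 27.1 CPM in heterozygous and 62.1 CPM in homozygous mice (-1.19 ± 0.13, adjusted p = 7.24e-06). Deptor, an mTOR inhibitor, went the other way in cTEC (0.99 ± 0.12, adjusted p = 1.26e-05) and fell in heterozygous mTEC (-0.52 ± 0.12, adjusted p = 0.00183). After Foxn1 deletion none of the 30 was called by edgeR, DESeq2 or limma-voom, and 2 were higher and 6 lower at an unadjusted p under 0.05 by edgeR.

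Lysosomal hydrolases and membrane proteins were lower more often than higher: 5 of 32 rose and 17 fell in heterozygous mTEC (median -0.23), and 7 rose and 16 fell in heterozygous cTEC (median -0.17). Ctsl, the cathepsin that processes MHC class II invariant chain in cTEC, averaged 1327 CPM in heterozygous and 6364 CPM in homozygous cTEC (-2.26 ± 0.09, adjusted p = 6.78e-10). It also fell after Foxn1 deletion, averaging 1898 CPM in Foxn1-deleted and 5208 CPM in control cTEC (-1.46 ± 0.30, adjusted p = 0.0364). Ctsa, which protects lysosomal glycosidases, fell in heterozygous cTEC (-1.48 ± 0.11, adjusted p = 2.31e-07) and in Foxn1-deleted cTEC (-1.03 ± 0.17, adjusted p = 0.0179). Ctsz rose in heterozygous cTEC (1.32 ± 0.08, adjusted p = 2.93e-08) and fell in heterozygous mTEC (-0.98 ± 0.08, adjusted p = 8.57e-07). By edgeR no other gene of this list was called after deletion, with 7 higher and 3 lower at an unadjusted p under 0.05, while DESeq2 called 2 higher and 2 lower and limma-voom 1 lower.

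Of 15 other selective autophagy receptors, 5 rose and 5 fell in heterozygous mTEC, near those shares, and 2 rose and 10 fell in heterozygous cTEC. Bnip3l, the mitophagy receptor NIX, averaged 371 CPM in heterozygous and 686 CPM in homozygous cTEC (-0.89 ± 0.06, adjusted p = 1.54e-07). It was also called after deletion by edgeR, alone of this list (0 higher and 5 lower at an unadjusted p under 0.05; DESeq2 called 1 lower and limma-voom 0), averaging 189 CPM in Foxn1-deleted and 397 CPM in control cTEC (-1.07 ± 0.22, adjusted p = 0.0365). Calcoco1, a receptor for the endoplasmic reticulum, fell in heterozygous cTEC (-0.93 ± 0.06, adjusted p = 7.73e-08) and rose in heterozygous mTEC (0.48 ± 0.08, adjusted p = 1.93e-04). In mTEC against cTEC, 12 of the 15 were lower and none higher, in heterozygous as in homozygous mice, while without normalization factors 10 were lower and 1 or 3 higher. Of all genes, 31.6% were lower and 40.4% higher in heterozygous mTEC, and 39.4% lower and 43.2% higher in homozygous mTEC.

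Of 14 genes for fusion of autophagosomes with lysosomes, 6 rose and 3 fell in heterozygous mTEC and 0 rose and 7 fell in heterozygous cTEC. Ykt6, an autophagosomal SNARE, averaged 154 CPM in heterozygous and 255 CPM in homozygous cTEC (-0.73 ± 0.05, adjusted p = 8.94e-08), and Fyco1, which links autophagosomes to microtubule motors, rose in heterozygous mTEC (0.62 ± 0.08, adjusted p = 2.64e-05). Of 9 other phagophore factors, 1 rose and 3 fell in heterozygous mTEC, the falls near the share of all genes, and 0 rose and 4 fell in heterozygous cTEC, with Epg5 the clearest in cTEC (-0.56 ± 0.06, adjusted p = 8.05e-06). Under other scalings the split of the fusion genes turned to 2 higher and 4 lower in mTEC, and that of the phagophore factors to 1 higher and 1 lower in cTEC. After deletion edgeR called no gene of either list, with 1 fusion gene lower and no phagophore factor at an unadjusted p under 0.05; DESeq2 called 1 fusion gene lower and limma-voom none. Of 5 other transcription factors of autophagy genes that could be tested, Zkscan3 rose in heterozygous mTEC (0.40 ± 0.10, adjusted p = 0.00369), and Tfe3 (-0.55 ± 0.05, adjusted p = 1.05e-06), Mitf (-0.83 ± 0.12, adjusted p = 6.43e-05) and Foxo3 (-0.33 ± 0.05, adjusted p = 2.20e-04) fell in heterozygous cTEC. Mitf, a relative of Tfeb, was also lower in Foxn1-deleted cTEC, averaging 13.1 CPM, against 21.5 CPM in control cTEC (-0.71 ± 0.16, adjusted p = 0.0451).

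Over the 6 groups, the mean level was highest in homozygous cTEC for 13 members and in homozygous mTEC for 10, and lowest in homozygous mTEC for 13 and in heterozygous cTEC for 11. The same order was not counted over all genes, so these numbers are not shown to be particular to the members. The ratio of highest to lowest group mean was smallest for Pik3c3 and Nbr1, at 1.13 each, followed by Atg9a and Atg7 at 1.16. In group means the order of Sqstm1 was 335 CPM in homozygous cTEC, 263 CPM in Foxn1-deleted cTEC, 253 CPM in control cTEC, 184 CPM in heterozygous cTEC, 151 CPM in homozygous mTEC and 130.1 CPM in heterozygous mTEC. Foxn1-deleted and control cTEC, neighbours in that order, overlapped. Because the models were scaled separately, only orders within a model rest on a test.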

How the data were processed

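RNA of sorted thymic epithelial cells was measured in 20 libraries. Per the submitters' processing notes, TopHat2 2.0.10, Bowtie2 2.2.3, Trimmomatic 0.32, SAMtools, Picard 1.105 and featureCounts were among the tools and mm10 (GRCm38) was the build; which of them served RNA is not given in the sources used here, nor are the annotation and whether counting used strand. The authors deposited raw read counts per gene, in 1 table with a header that names group and library. Library totals of 20719630 to 22372633 counts limit genes of few counts most.

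From these counts, edgeR 4.0.16 (R 4.3.3) gave TMM-scaled CPM and the quasi-likelihood test, fitted once for the 10 libraries of the deletion model and once for the 10 of the transgenic model. Genes passed filterByExpr with a minimum count of 10 and a minimum total of 15, fold changes used a prior count of 0.125, and calls needed an adjusted p under 0.05. SE is the log2 fold change over the root of F. Per-library values are given for the 6 members of smallest adjusted p in each direction of each comparison and for 8 members always given; every other called member is named. The members, pathway lists and markers were chosen with earlier results of these data known. Alternatives were DESeq2 1.42.0, limma-voom (limma 3.58.1), DESeq2's size factors, no normalization factors, no filter on low counts, only the libraries of the groups compared, library number as a block, and leaving out each library. The fits were tested on simulated data. Libraries differed beyond sampling noise, and none was counted as a duplicate. Promoters are RefSeq's, GRCm38.p6. The ChIP, input and ATAC samples were not analysed here.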

Additional observations from a re-analysis of the deposited data

Results flagged for a closer look

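Of 78 groups of 5 libraries tested for a library far from the rest, 2 were marked, where 3.9 would be marked by chance at 1 in 20. Atg9b stood at 0.981 CPM in control cTEC library 5, with the next control at 0.281 and the lowest at 0.0889 CPM. Ulk1 stood at 155 CPM in Foxn1-deleted cTEC library 2, with the next at 196 and the highest at 212 CPM. The log2 change of Ulk1 after deletion, 0.29 with this library, was 0.37 without it (adjusted p = 0.179).

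The dose effect differed between the compartments, by edgeR's quasi-likelihood test of the difference, for 16 members. As log2 change in mTEC minus that in cTEC, the difference was 1.58 for Wipi1, 1.40 for Atg16l2, 1.06 for Gabarapl1, 0.65 for Atg2a, 0.64 for Sqstm1 and 0.54 for Lamp2. It was 0.52 for Ulk1, 0.51 for Ambra1, 0.49 for Atg2b, 0.40 for Pik3r4, 0.32 for Atg16l1 and 0.24 for Atg4b. It was -0.34 for Atg4d, -0.46 for Atg13, -0.48 for Tfeb and -0.49 for Atg4a. Wipi1, Ambra1 and Pik3r4 were called in opposite directions in the 2 compartments. Only Wipi1 of them kept both calls in every fit that left out 1 library.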

How the results depend on the processing

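After Foxn1 deletion the count of lower members, 1 as reported, was 3 with DESeq2, 0 with limma-voom, 4 with library number as a block and 0 to 4 without a single library, and that of higher members was 1 under the block. All genes called, 300 as reported, were 1064 with DESeq2, 104 with limma-voom, 1220 under the block and 27 to 920 without a single library (the fewest without Foxn1-deleted library 4, the most without control 2). The replicate block called Wipi1, Atg16l2, Optn and Lamp2 lower and Gabarapl1 higher. Same-numbered Foxn1-deleted and control libraries correlated at 0.60, 0.75, 0.09, 0.35 and 0.45 in their deviations, and 4 of 5 correlated best with their own number. The numbers may thus mark shared batches, but no label says so and number 3 did not match, so the main fit has no block. Calls after deletion depend on this choice. In the transgenic groups these correlations were 0.05 to 0.07, each library correlated best with its own number, and the block left 2 higher and 15 lower in cTEC and 8 and 12 in mTEC. Members higher in heterozygous cTEC, 2 as reported, were 11 without normalization factors, 4 with only the cTEC libraries and 0 to 5 without a single library (none without heterozygous cTEC 1, 5 without heterozygous cTEC 2). Those higher in heterozygous mTEC, 10 as reported, were 5 with DESeq2 or its size factors and 6 to 10 without a single library (6 without heterozygous mTEC 2), and the 13 lower were 8 to 13. Those higher in homozygous mTEC than cTEC, 10 as reported, were 16 without normalization factors. Negative dose-by-compartment differences, 4 as reported, were 7 with DESeq2 or its size factors, 8 without normalization factors and 2 to 5 without a single library. Signs of values that were not called turned without a single library, over which the log2 change after deletion ran from -0.03 to 0.04 for Becn1, -0.05 to 0.13 for Map1lc3b and -0.03 to 0.15 for Sqstm1. Between doses in cTEC it ran from -0.01 to 0.08 for Ulk1 and -0.03 to 0.04 for Becn1, which was 0.13 without normalization factors. Between compartments in homozygous mice they turned for Uvrag (0.01 with DESeq2 or its size factors, 0.07 without normalization factors), Atg7 (0.02) and Atg4c (0.01) without normalization factors. Without a single library Atg5 ran from -0.14 to 0.12 in homozygous mice, -0.13 to 0.04 in heterozygous mice and -0.23 to 0.03 in the difference of dose effects. The cause of each change was not tested. Over all results and alternatives, 2003 values kept direction and side of the threshold, 186 fell short of it, 27 newly passed it and 23 turned sign. Low counts limit Atg9b, which could not be tested after deletion.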

Other observations

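In both groups of the deletion model, library 2 was the lowest for Map1lc3b, Sqstm1, Gabarap and Gabarapl1. Gabarapl1 was at 68.2, 42.4, 67.0, 60.7 and 53.7 CPM in Foxn1-deleted and 58.6, 39.1, 58.0, 51.7 and 41.2 CPM in control libraries 1 to 5, and the summed thymocyte markers of the libraries numbered 2 were 60.2 CPM in the Foxn1-deleted and 64.2 CPM in the control library, the lowest of each group. Library 2 was likewise the lowest of each group for the summed mTEC, B cell, endothelial and erythroid markers. It was not the lowest for fibroblast or macrophage and dendritic cell markers. The relation between these values was not tested.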
